A study of Mus musculus with 37 samples.

Results

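The Period genes *Per1*, *Per2* and *Per3* and the cryptochrome genes *Cry1* and *Cry2* were taken by name as the repressor arm of the circadian clock, 5 of the 24016 genes in the deposited table. All 5 were also among the 11016 genes counted below, those with a mean of at least 50 reads over the libraries. Their mRNA was measured by polyA RNA-seq in bone marrow-derived macrophages (BMDMs), which were grown for 6 days with M-CSF from the marrow of male mice aged 6 to 9 weeks. One group of mice was wild type (WT) and the other was *Arntl*-/-, lacking in every tissue the gene that encodes Bmal1, and both carried the strain label C57BL/6J. The study names the WT animals as littermates in 1 place and as purchased C57BL/6J mice in another. Cells of each genotype received Kdo2 lipid A (KLA), the part of bacterial lipopolysaccharide that TLR4 binds, and were collected at 0, 6, 24 and 48 h. No other agent was named for these samples. Each of the 8 conditions had 1 library, so a single time or a single genotype has no test, and the genotypes were tested over the 4 times together.

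In the core clock, Clock and Bmal1 bind E-boxes as a pair and switch on the Period and cryptochrome genes, whose proteins gather in the nucleus and shut that pair off again. A second loop runs through Rev-erb and Ror proteins, which compete for shared half-sites in *Arntl* and *Cry1*, and another through Dbp, Tef, Hlf and Nfil3, which bind D-boxes. *Per1* and *Per2* also have inputs outside the loop, among them cAMP-CREB and glucocorticoid signals. In macrophages this clock is known to gate the response to bacterial products by time of day.

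The promoters of 4 of the 5 genes, *Per1*, *Per3*, *Cry1* and *Cry2*, were found in the RefSeq table of promoter windows, and *Per2* had no window. The bases before each start are shown as a place where clock factors are known to bind. Whether they bear on the differences between the genotypes was not tested. Each sequence holds the 250 bases before an annotated start of transcription, 5′ to 3′ on the strand of the gene, in build GRCm38.p6. Capitals mark the E-box CACGTG, the variant CACGTT or its reverse complement, and the D-box core TTANGTAA. The windows lie at chr10:85185055-85185304 on the minus strand for *Cry1*, chr2:92434070-92434319 on the minus strand for *Cry2*, chr11:69098699-69098948 on the plus strand for the first start of *Per1*, and chr4:151044666-151044915 on the minus strand for *Per3*.
Cry1: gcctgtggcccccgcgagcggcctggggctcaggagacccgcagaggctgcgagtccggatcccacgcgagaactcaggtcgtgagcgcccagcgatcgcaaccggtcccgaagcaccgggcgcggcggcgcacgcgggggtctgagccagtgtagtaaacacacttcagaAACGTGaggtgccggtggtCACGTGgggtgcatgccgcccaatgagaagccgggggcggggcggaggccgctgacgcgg
Cry2: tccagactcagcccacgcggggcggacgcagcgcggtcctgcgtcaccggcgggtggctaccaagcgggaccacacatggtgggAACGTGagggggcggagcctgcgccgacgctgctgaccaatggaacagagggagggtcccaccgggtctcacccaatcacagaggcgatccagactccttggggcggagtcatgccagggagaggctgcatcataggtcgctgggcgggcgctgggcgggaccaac
Per1: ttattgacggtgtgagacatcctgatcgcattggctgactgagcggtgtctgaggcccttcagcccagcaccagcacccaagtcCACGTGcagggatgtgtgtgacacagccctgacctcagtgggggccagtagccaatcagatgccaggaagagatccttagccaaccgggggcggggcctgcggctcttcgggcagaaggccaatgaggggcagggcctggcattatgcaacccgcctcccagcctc
Per3: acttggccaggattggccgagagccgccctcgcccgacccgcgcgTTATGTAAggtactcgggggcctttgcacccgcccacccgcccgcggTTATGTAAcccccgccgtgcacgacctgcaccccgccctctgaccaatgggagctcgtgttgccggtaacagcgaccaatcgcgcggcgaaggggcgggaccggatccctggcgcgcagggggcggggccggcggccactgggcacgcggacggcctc

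Both strands were searched for 5 motifs, in windows that ran on to 50 bases past the start. *Cry1* held an E-box at -60 to -55 from the start and the variant at -79 to -74. *Cry2* held the variant alone, at -166 to -161. The first start of *Per1* had an E-box at -166 to -161, and a second start 1203 bases further on had neither form. *Per3* also had no E-box of either form in its window, and it held D-box cores at -205 to -198 and -158 to -151. Among all 32851 windows of the table, 7.15% held the E-box, 4.68% the variant and 2.32% the D-box core.

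Of the other motifs, the half-site AGGTCA, which Rev-erb and Ror proteins bind, lay at -137 to -132 before the first *Per1* start, and 16.3% of all windows held one. The CRE core TGACG, bound by CREB, lay at -246 to -242 and at -132 to -128 in the windows of *Per1*, at -209 to -205 in *Cry2* and at -8 to -4 in *Cry1*. It was common, in 20.8% of all windows. No matches overlapped each other in the windows of these genes. A match is a run of letters and not a measured site, and a motif that was not found may lie outside the window.

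**Figure D1:**
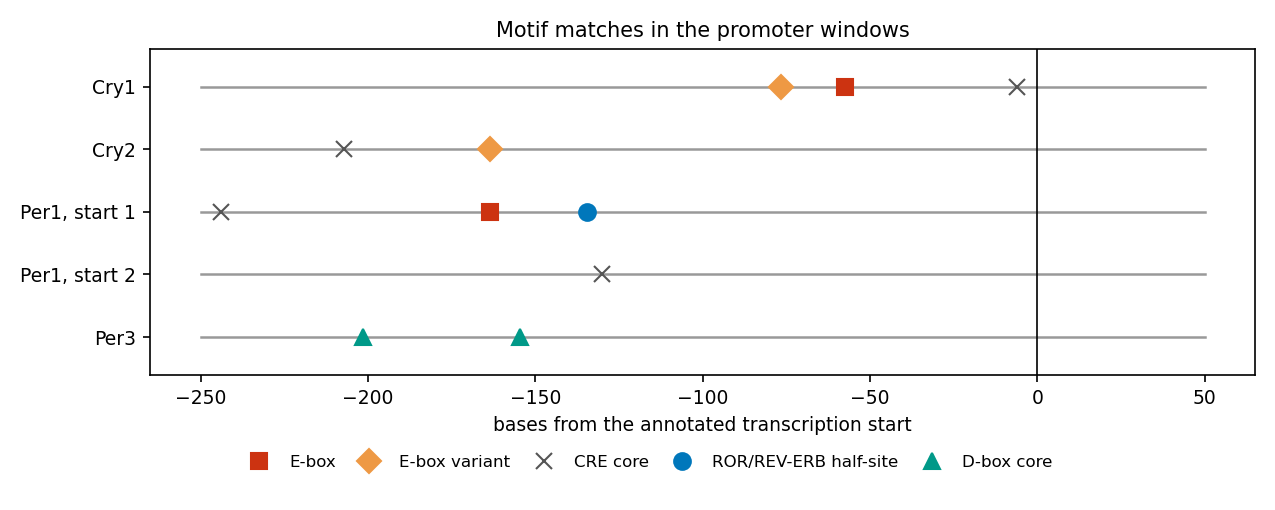
Motif matches in the 5 promoter windows of *Cry1*, *Cry2*, *Per1* and *Per3*, from 250 bases before to 50 bases after each annotated start (x axis, bases from the start; each row is 1 window and each symbol 1 match). The E-box and its variant appear in the *Cry1*, *Cry2* and first *Per1* windows, and the D-box core appears at 2 places in *Per3*.

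The deposited FPKM values were counted by the authors per 10000000 reads and per kb of exon, and they were divided here by a size factor per library to give scaled FPKM. The libraries held 8587557 to 27036991 reads on genes, the deepest being WT at 6 h. Numbers of reads were worked out from the FPKM. Low read numbers were mostly even and heaped up at 6, as they would be where both mates and up to 3 copies at a position were counted. Each 95% interval below was therefore computed with the reads divided by 6, and it covers counting error only. Levels have an exact Poisson interval and ratios an exact binomial one. In bulk RNA a fall in the number of cells of a type and less RNA per cell cannot be told apart.

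*Arntl* itself, the deleted gene, had 34.3, 32.3, 35.6 and 38.7 scaled FPKM in the WT libraries (0, 6, 24 and 48 h) and 13.9, 11.3, 18.8 and 20.2 in the *Arntl*-/- libraries. Each *Arntl*-/- library was below every WT library, and reads from the gene remained in all of them. Which part of the gene the allele lacks is not given in the sources used here.

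**Figure D2:**
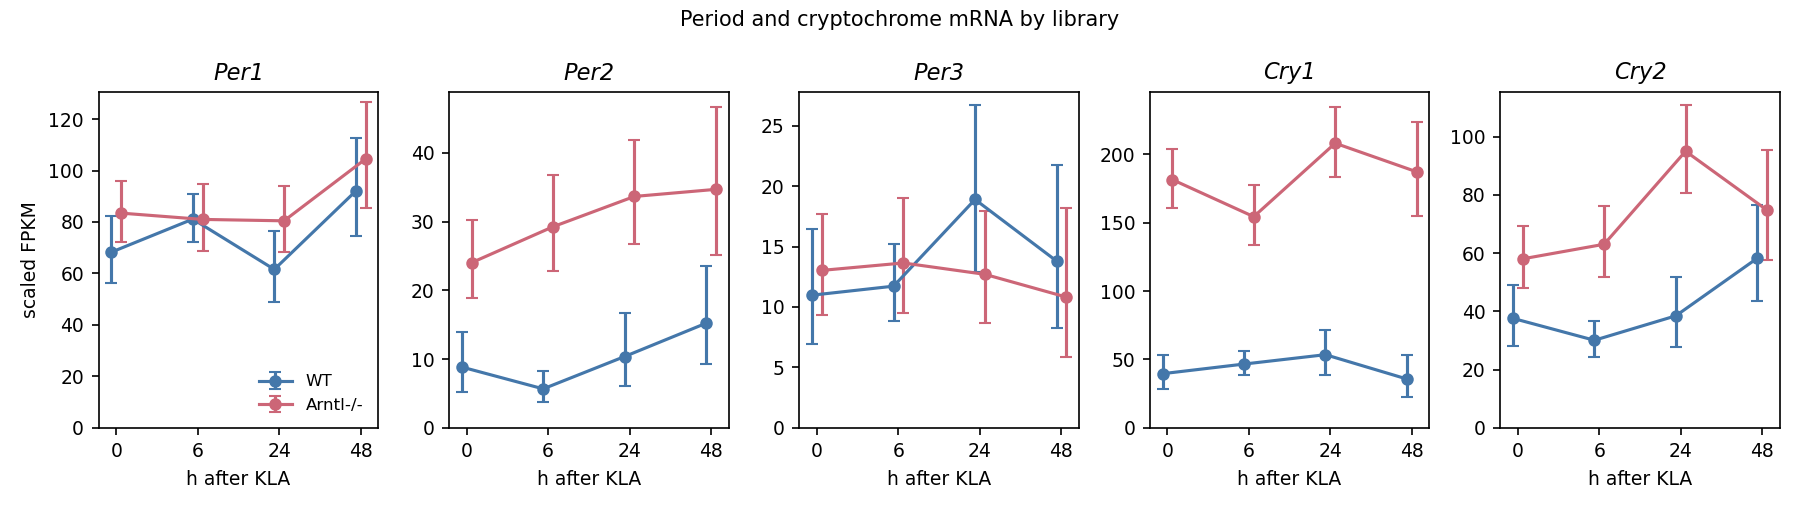
Scaled FPKM (y axis, a separate scale for each gene, all from 0) of the 5 repressor genes against hours after KLA, with WT in blue and *Arntl*-/- in red. Each point is 1 library, points are shifted slightly sideways, and bars are 95% counting intervals with reads divided by 6. The WT and *Arntl*-/- points stay apart for *Per2* and *Cry1* and cross for *Per3*.

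*Per1* (RefSeq NM_011065, mm9 chr11:68912458-68923459, plus strand) encodes a Period protein whose mRNA is known to respond quickly to outside signals. The WT libraries, taken in the order 0, 6, 24 and 48 h, had 68.3, 81.1, 61.6 and 92.0 scaled FPKM of *Per1*, from 478 to 1837 reads, and the *Arntl*-/- libraries had 83.4, 81.0, 80.5 and 104.5, from 622 to 1208 reads. The 2 genotypes overlapped, and both were highest at 48 h. The ratios of *Arntl*-/- to WT were 1.22, 0.999, 1.31 and 1.14 in the order of the times, so none reached 1.5-fold, the size used throughout to count a difference. The counting interval of the ratio included 1 at each time, with 0.991 to 1.73 at 24 h. The mean log2 ratio over the times was 0.21, with an interval of 0.04 to 0.39.

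*Per2* (NM_011066, mm9 chr1:93312559-93355905, minus strand) encodes the Period protein that binds cryptochromes and carries them to the nucleus. In the same order of times, *Per2* stood at 8.84, 5.67, 10.4 and 15.2 scaled FPKM in the WT libraries, from 101 to 161 reads, and at 24.0, 29.3, 33.7 and 34.7 in the *Arntl*-/- libraries, from 259 to 490 reads. The lowest *Arntl*-/- library stood above the highest WT library. The ratio to WT was 2.72 at 0 h (interval 1.61 to 4.82), 5.16 at 6 h (3.27 to 8.36), 3.24 at 24 h (1.90 to 5.85) and 2.28 at 48 h (1.31 to 4.11). The difference was thus widest at 6 h, where the WT level was at its lowest. The mean log2 ratio was 1.66 (1.298 to 2.027), a 3.17-fold difference that ranked 10th from the highest of the 11016 genes.

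*Per3* (NM_011067, mm9 chr4:150377764-150418774, minus strand) encodes the remaining Period protein, which in mice is known to be less needed for a running clock than Per1 and Per2. Its WT libraries had 10.98, 11.7, 18.9 and 13.8 scaled FPKM, from 110 to 342 reads, and its *Arntl*-/- libraries 13.0, 13.6, 12.7 and 10.8, from 83 to 243 reads. The genotypes overlapped and changed order between 6 and 24 h. The successive ratios were 1.19, 1.16, 0.672 and 0.784, and the counting interval of each included 1. At 24 h the ratio lay just inside the 1.5-fold line, with an interval of 0.397 to 1.14. *Per3* was the 1 gene of the 5 whose mean log2 ratio was below 0, at -0.11, and its interval of -0.50 to 0.28 included 0. Without the 24 h pair that mean was 0.04, and without the 0 h pair -0.23.

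*Cry1* (NM_007771, mm9 chr10:84594445-84647799, minus strand) encodes the stronger of the cryptochrome repressors. The 4 WT libraries had 39.6, 46.7, 53.5 and 35.7 scaled FPKM of *Cry1*, from 143 to 684 reads, and the 4 *Arntl*-/- libraries had 181.6, 154.5, 208.2 and 187.3, from 722 to 1702 reads. The lowest *Arntl*-/- library was far above the highest WT library. The ratio was 4.59 at 0 h (interval 3.31 to 6.50), 3.31 at 6 h (2.62 to 4.21), 3.89 at 24 h (2.83 to 5.47) and 5.24 at 48 h (3.36 to 8.52). It had the largest ratio of the 5 genes at 0, 24 and 48 h and came after *Per2* at 6 h. The mean log2 ratio of 2.07 (1.82 to 2.31) was a 4.19-fold difference and ranked 5th of the 11016 genes.

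*Cry2* (NM_009963, mm9 chr2:92243804-92274226, minus strand) encodes the other cryptochrome. *Cry2* was measured at 37.6, 30.1, 38.5 and 58.3 scaled FPKM in the WT libraries, from 257 to 586 reads, and at 58.1, 63.1, 95.04 and 74.8 in the *Arntl*-/- libraries, from 383 to 949 reads. The genotypes overlapped only because WT at 48 h was level with *Arntl*-/- at 0 h, and at each time the *Arntl*-/- library was higher. The ratio was 1.54 at 0 h (interval 1.11 to 2.17), 2.10 at 6 h (1.58 to 2.79), 2.47 at 24 h (1.75 to 3.55) and 1.28 at 48 h (0.875 to 1.89). The mean log2 ratio was 0.84 (0.60 to 1.07), or 1.79-fold, ranking 52nd of the 11016 genes. *D930015M05Rik* overlaps *Cry2* on the opposite strand and had a mean of 24.3 reads, and because reads were counted on both strands the share of *Cry2* reads that came from it cannot be told apart.

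**Figure D3:**
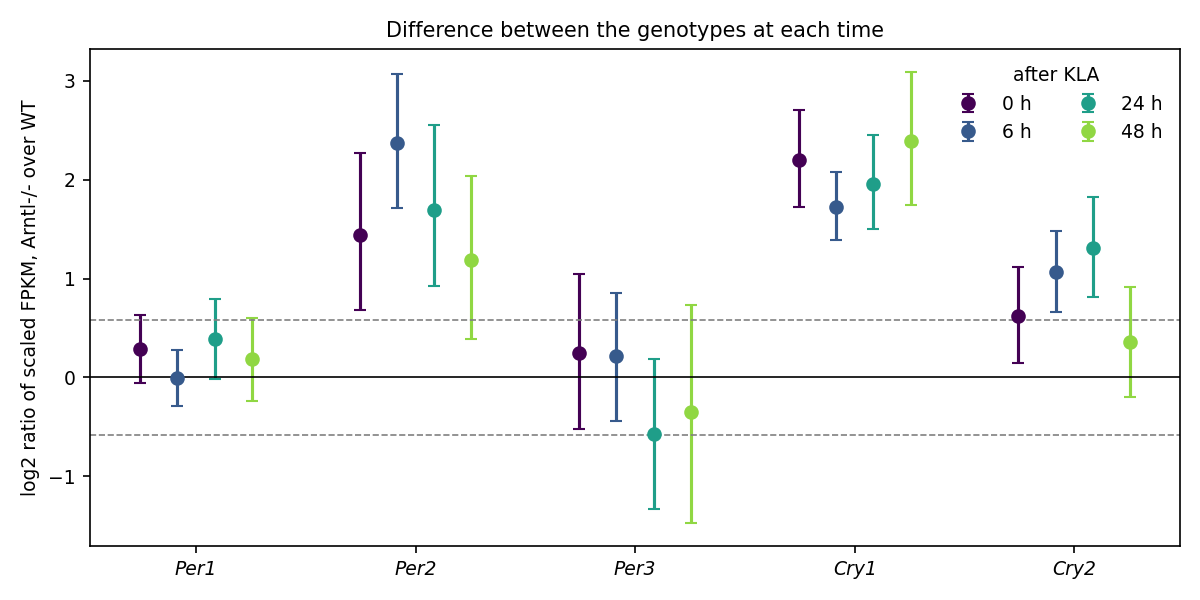
Log2 ratio of scaled FPKM, *Arntl*-/- over WT (y axis), for each repressor gene at 0, 6, 24 and 48 h after KLA. Each point compares 2 libraries, bars are 95% counting intervals with reads divided by 6, and dashed lines mark 1.5-fold in either direction. All *Per2* and *Cry1* points lie above the upper line, while *Per1* and *Per3* points lie between the lines.

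As a list, 3 of the 5 genes (*Per2*, *Cry1* and *Cry2*) were at least 1.5-fold higher in *Arntl*-/- cells at 0 h, against 4.05% of the 11016 genes counted. *Cry2* at 0 h was within 1.5-fold after correction for expression level (log2 ratio 0.57). The same 3 were higher at 6 h, against 2.31%, and at 24 h, against 4.78%. At 48 h *Per2* and *Cry1* were higher, against 7.29%. None of the 5 was 1.5-fold lower at any time, against 2.25%, 3.15%, 3.39% and 6.18% of genes at 0, 6, 24 and 48 h. After correction for expression level *Per3* was so at 24 h (log2 ratio -0.66). The median log2 ratio of the list was 0.62, 1.07, 1.302 and 0.36 at the successive times, and that of all genes counted lay between -0.02 and 0.01.

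*Per2* and *Cry1* were at least 1.5-fold higher at all 4 times, which was so for 15 genes in all, or 0.136%. They were also the 2 genes of the list whose *Arntl*-/- libraries all lay above the WT libraries, a pattern shown by 86 genes, or 0.781%. None of the 5 had all its *Arntl*-/- libraries below the WT libraries, against 0.590% of genes. The calls at 1.5-fold did not follow the families. *Per2* and *Cry1* were higher at all 4 times and *Cry2* at 0, 6 and 24 h. With the scaling used here *Per1* and *Per3* stayed under 1.5-fold at each time. A difference between these groups of genes was not tested. The longest run of bases that a Period transcript shared with another, or *Cry1* with *Cry2*, was 20 to 21 bases.

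The genotypes were also compared over the 8 libraries with limma, with genotype and time as terms, a fit added after seeing the data. Its error comes from how the genotype difference varied among the 4 times, not from replicate cultures, with 3 residual degrees of freedom per gene. The error of each gene was then drawn by limma toward a trend fitted over all genes counted. The SE and adjusted p below thus also borrow from other genes, and the 4 times are not replicates of a genotype. *Cry1* (log2 difference 2.07 ± 0.12, SE) had a limma adjusted p of 1.7e-05 and *Per2* (1.66 ± 0.24) one of 0.016, both higher in *Arntl*-/- cells at 4 of 4 times. *Cry2* (0.84 ± 0.17), also higher at 4 of 4 times, had a limma adjusted p of 0.099 and did not pass 0.05. *Per1* and *Per3* had limma adjusted p of 0.66 and 0.97. Of the 11016 genes, 16 (0.145%) were higher and 13 (0.118%) lower at that threshold, 2 of the 5 repressor genes being among the higher and 0 among the lower. Without the 6 h or the 24 h libraries the limma adjusted p of *Per2* was 0.095 or 0.075, and without the 48 h libraries that of *Cry2* was 0.020. *Cry1* stayed between 1.8e-06 and 0.0010 with any 1 time left out.

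**Figure D4:**
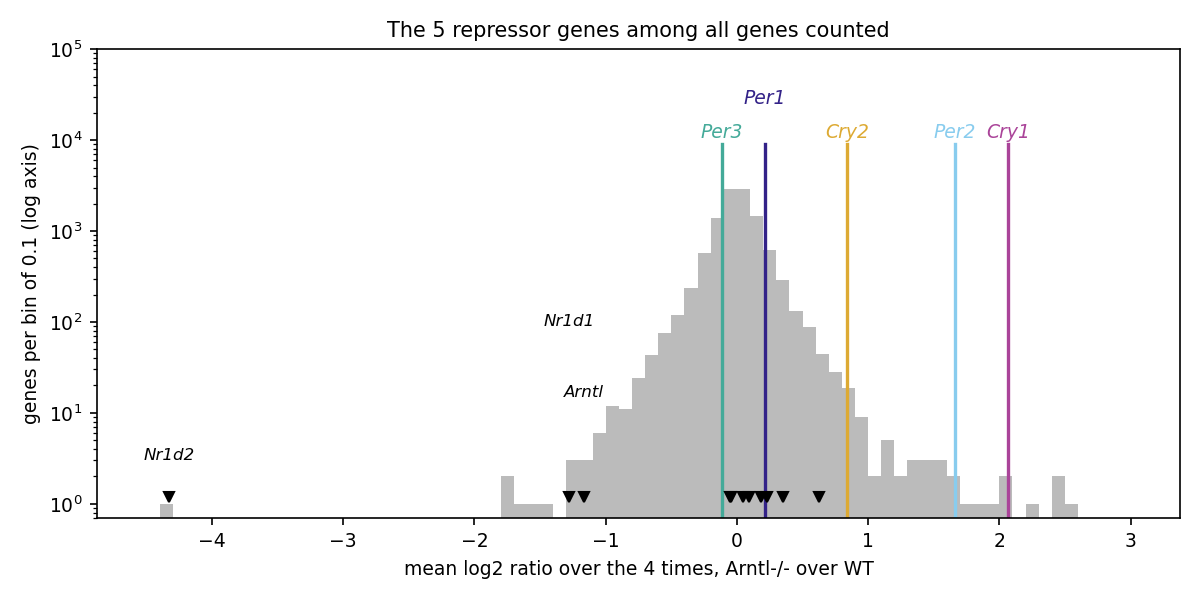
Histogram of the mean log2 ratio over the 4 times, *Arntl*-/- over WT (x axis), for the 11016 genes counted, with genes per bin of 0.1 on a log y axis. Colored lines mark the 5 repressor genes and black triangles the 11 other clock loop genes counted, of which the 3 farthest to the left are named. *Cry1* at 2.07 and *Per2* at 1.66 lie in the sparse right tail and *Nr1d2* at -4.33 is the farthest left.

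Because FPKM is per length, the levels of the 5 genes can also be set against each other. Their summed scaled FPKM was 165, 175, 183 and 215 in the WT libraries and 360, 341, 430 and 412 in the *Arntl*-/- libraries, each in order of time. The Period part of that sum was 88.1 to 121 in WT and 120 to 150 in *Arntl*-/- cells, while the cryptochrome part was 76.7 to 94.0 and 218 to 303. Most of the added repressor mRNA was therefore cryptochrome mRNA.

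In WT cells *Per1* was the most abundant of the 5, with 33.7% to 46.3% of the sum, and in *Arntl*-/- cells *Cry1* was, with 45.2% to 50.4%. The order in WT cells at 0, 6 and 24 h was *Per1*, *Cry1*, *Cry2*, *Per3* and *Per2*. Several neighbours in it did not differ beyond their counting intervals, among them *Cry1* and *Cry2* at 0 and 24 h, *Per3* and *Per2* at 0 and 24 h, and *Per1* and *Cry1* at 24 h. At 48 h the WT order was *Per1*, *Cry2*, *Cry1*, *Per2* and *Per3*, and the intervals of each pair of neighbours overlapped. In *Arntl*-/- cells the order was *Cry1*, *Per1*, *Cry2*, *Per2* and *Per3* at 0, 6 and 48 h, with *Cry2* above *Per1* at 24 h. There the intervals of *Per1* and *Cry2* overlapped at 6, 24 and 48 h, and no other neighbours overlapped.

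Ratios within a library show the same shift without any scaling between libraries. *Cry1* over *Cry2* was 1.05, 1.55, 1.39 and 0.613 in the WT series and 3.13, 2.45, 2.19 and 2.50 in the *Arntl*-/- series. *Per1* over *Per2* was 7.72, 14.3, 5.93 and 6.05 in the first and 3.47, 2.77, 2.39 and 3.01 in the second. Neither ratio overlapped between the genotypes, though some of their counting intervals did. Each holds *Cry1* or *Per2*, whose own levels did not overlap, and how often other gene pairs separate in this way was not counted. *Per1* over *Per3* did overlap, with 3.26 to 6.92 in the WT series and 5.94 to 9.66 in the *Arntl*-/- series. *Per2* was below *Per3* in WT cells at 0, 6 and 24 h and above it at 48 h (ratios 0.806, 0.484, 0.549 and 1.102), whereas in *Arntl*-/- cells *Per2* was above *Per3* at each time, by 1.84- to 3.21-fold.

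**Figure D5:**
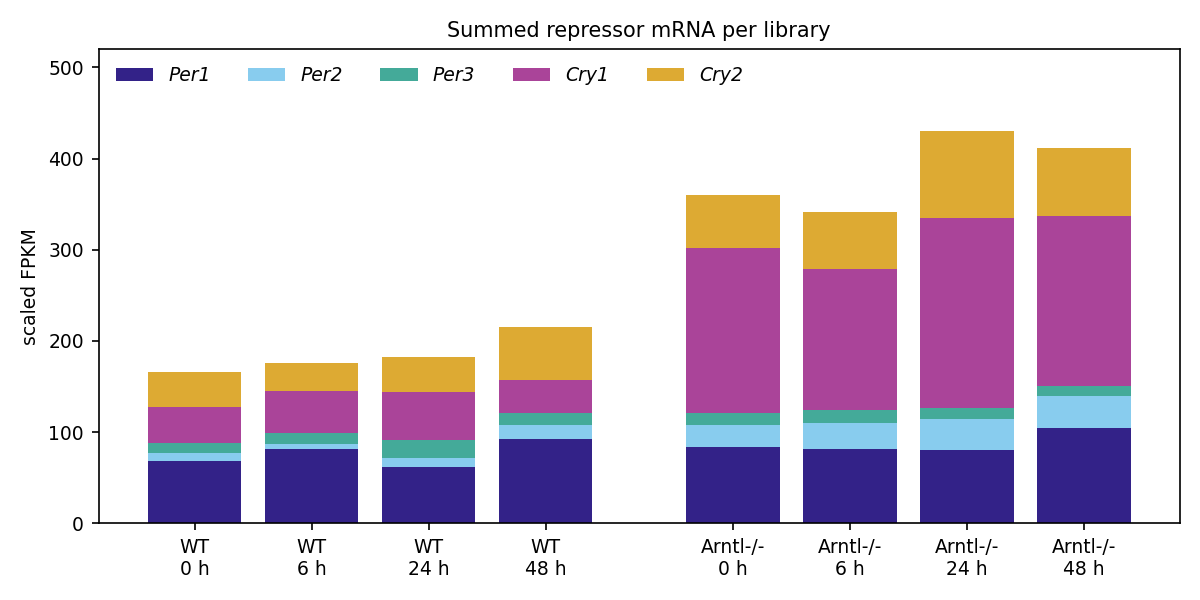
Stacked scaled FPKM of the 5 repressor genes (y axis, from 0) in each of the 8 libraries, WT on the left and *Arntl*-/- on the right, ordered by hours after KLA. The *Arntl*-/- stacks reach 341 to 430 against 165 to 215 in WT, and the *Cry1* block is the largest in each *Arntl*-/- stack.

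After KLA, the repressor genes of WT cells differed from their 0 h level by 1.5-fold in few cases. *Per2* at 6 h was 0.641 of its 0 h level (interval 0.340 to 1.23), against 3.71% of genes counted that were lower by as much and 6.13% that were higher, and it was within 1.5-fold with the values as deposited (log2 change -0.48) or a pseudocount of 1 (-0.56). *Per3* at 24 h was 1.72 times its 0 h level (0.975 to 3.08), against 9.09% of genes higher and 9.54% lower. At 48 h *Per2* was at 1.72 times (0.862 to 3.45) and *Cry2* at 1.55 times (1.04 to 2.32), against 13.4% of genes higher and 16.0% lower. Among these only the interval of *Cry2* at 48 h left out 1, and with the values as deposited its log2 change was 0.49, within 1.5-fold.

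*Cry1* and *Per1* stayed within 1.5-fold of their 0 h level in WT cells at each time, with *Cry1* at 1.35 times at 24 h and *Per1* at 1.35 times at 48 h. Between 24 and 48 h *Cry2* was higher by 1.51-fold (0.990 to 2.33), against 8.53% of genes higher and 10.6% lower. Over the same step *Per1* was at 1.49 times and *Cry1* at 0.667 times its 24 h level, with intervals of 1.098 to 2.04 and 0.388 to 1.12, both inside the line. Which genes passed 1.5-fold in this step depended on the scaling: with the values as deposited the log2 change of *Cry2* was 0.495, inside the line, and that of *Cry1* -0.68, past it, while *Per1* was past it with the 3 other scalings (0.62 to 0.64) and *Per2* with 2 of them (0.59 and 0.62).

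In *Arntl*-/- cells the 1 difference from 0 h of that size was *Cry2* at 24 h, at 1.64 times (1.28 to 2.09), against 8.04% of genes higher and 10.1% lower. No repressor gene reached 1.5-fold at 6 h, against 3.54% of genes higher and 4.05% lower, or at 48 h, against 15.6% and 18.0%. *Per2* came nearest among the rest, at 1.22, 1.40 and 1.44 times its 0 h level at 6, 24 and 48 h, and at 48 h it was past 1.5-fold with upper-quartile scaling or a correction for expression level or gene length (log2 change 0.62 to 0.68). The 24 to 48 h step brought no difference of 1.5-fold either, against 7.60% of genes higher and 9.90% lower.

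The change from 0 h was then compared between the genotypes, as the log2 change in *Arntl*-/- less that in WT cells. For *Per2* at 6 h it was 0.92 (-0.06 to 1.90), from a WT change of -0.63 and an *Arntl*-/- change of 0.28. For *Cry2* at 24 h it was 0.68 (0.003 to 1.35), the 1 comparison of the 15 whose interval left out 0. For *Per3* at 24 h it was -0.81 (-1.84 to 0.21), since the WT level was higher at 24 h and the *Arntl*-/- level was not. *Cry1* at 6 h had -0.47 (-1.04 to 0.11), *Cry2* at 6 h had 0.44 (-0.17 to 1.05), and *Per1* had -0.29 at 6 h, 0.10 at 24 h and -0.11 at 48 h.

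Over the 4 times, the highest level of each repressor gene divided by its lowest was smaller in *Arntl*-/- than in WT cells. It was 1.494 in WT and 1.299 in *Arntl*-/- cells for *Per1*, 2.68 and 1.44 for *Per2*, 1.72 and 1.26 for *Per3*, 1.498 and 1.35 for *Cry1*, and 1.94 and 1.64 for *Cry2*. The range was thus narrower for 5 of the 5 genes, also under each other scaling tried, against 54.9% of the 11001 genes counted that had reads in every library. This comparison was chosen after seeing the data. No interval was computed for the ranges, which widen with counting error. Reads were fewer in WT at each time for *Per2* (101 to 161 against 259 to 490), *Cry1* and *Cry2*, and in mixed order for *Per1* and *Per3*.

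Of the 15 other clock loop genes in the table, 11 were counted, and 3 of them were at least 1.5-fold lower in *Arntl*-/- cells at all 4 times, against 0.109% of genes. These were *Arntl*, *Nr1d1* and *Nr1d2*, the last 2 encoding the Rev-erb repressors. *Nr1d1* was at 44.5, 33.9, 26.2 and 37.0 scaled FPKM in the WT libraries against 19.6, 12.6, 10.0 and 16.7 in the others, a mean log2 ratio of -1.28. *Nr1d2* was at 70.6, 60.2, 95.4 and 90.2 against 6.15, 3.23, 2.76 and 3.70, a mean log2 ratio of -4.33. Both were lower at the times when *Cry1*, *Per2* and *Cry2* were higher, and a link between them was not tested. None of the list was higher at all 4 times, and its median log2 ratios were 0.11, 0.15, 0.13 and -0.30 at the successive times. Of all genes counted, 4.05%, 2.31%, 4.78% and 7.29% were 1.5-fold higher and 2.25%, 3.15%, 3.39% and 6.18% lower. In the list 0, 2, 1 and 1 genes were higher and 3, 3, 3 and 4 lower. Besides the 3 just given, and named here after their values were seen, these were *Rora* at 6 h (log2 ratio 0.65), *Nfil3* at 6 and 48 h (0.75 and 1.16), and *Ciart*, higher at 24 h (0.72) and lower at 48 h (-1.41). *Npas2*, whose product can take the place of Clock, was too low to be counted, with 0, 8, 0 and 0 reads in the WT libraries and 26, 23, 6 and 11 in the *Arntl*-/- libraries.

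Of 28 genes for the enzymes and partners that modify, degrade or bind the Period and cryptochrome proteins, 26 were counted. They include the casein kinases and F-box proteins that set how long the repressors last. At 0, 6, 24 and 48 h, 0, 0, 1 and 1 of them were at least 1.5-fold higher and 1, 1, 2 and 1 lower. Of all genes counted, 4.05%, 2.31%, 4.78% and 7.29% were higher at these times and 2.25%, 3.15%, 3.39% and 6.18% lower. The median over the list of the mean log2 ratio was -0.04. *Usp2*, a deubiquitinase known to act on Per1, Bmal1 and cryptochromes, was at 12.9, 12.7 and 15.4 scaled FPKM in the WT libraries of 0, 6 and 24 h against 6.48, 5.51 and 3.73 in the *Arntl*-/- libraries. At 48 h the order was the other way, 1.40 against 3.39, from 6 and 14 reads. The other genes in these counts, named after their values were seen, were the F-box gene *Btrc*, higher at 24 h (log2 ratio 0.69), *Tipin*, lower at 24 h (-0.62), and the casein kinase gene *Csnk1e*, lower at 48 h (-0.62). Of 10 genes with cAMP-CREB or glucocorticoid input, as *Per1* has, 9 were counted. In that list 1 gene was at least 1.5-fold higher at 0 h and 1 lower at 48 h, against 4.05% and 6.18% of genes. In both cases it was *Nr4a1*, also named after its values were seen (log2 ratios 0.78 and -0.87). None was so at 6 and 24 h, and the median of the mean log2 ratio was 0.10.

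The genes with the nearest profiles were found by the root mean square difference of log2 values over the 8 libraries, after each gene's mean was removed. *Per2* had *Cry2* (0.45), *Cx3cr1* (0.48) and *Cry1* (0.52) as its nearest of 11015 genes. *Cry1* had *Cadm1* (0.36), *Gm10677* (0.43) and *Per2* (0.52), with *Cry2* in place 14, and *Gm10677* lies within *Cadm1* on the opposite strand. From the side of *Cry2*, *Per2* was in place 790 and *Cry1* in place 9192. *Cry2* had *Col7a1* (0.21), *Grin3b* (0.24) and *Dleu2* (0.27), all higher in *Arntl*-/- cells in the mean. *Per1*, with *Rraga* (0.07), *Dpm1* (0.07) and *Tspyl2* (0.08), and *Per3*, with *Tm7sf2* (0.09), *Nsd1* (0.09) and *Gm14288* (0.10), had smaller differences from their nearest genes than the other 3, and their own root mean square deviations from their means were smaller too, at 0.22 and 0.24 against 0.92 for *Per2*, 1.05 for *Cry1* and 0.52 for *Cry2*.

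Markers of other cells in marrow cultures moved with the genotype in part. The summed scaled FPKM of 6 stromal markers was 544 to 1552 in WT and 414 to 888 in *Arntl*-/- cells. At 0, 6, 24 and 48 h, 2, 3, 4 and 5 of them were at least 1.5-fold lower in *Arntl*-/- cells, against 2.25%, 3.15%, 3.39% and 6.18% of genes. *Col3a1* and *Sparc* were lower at all 4 times and *Bgn* at 3, while *Dcn* was higher at 0 h (log2 ratio 1.21) and had a mean log2 ratio of 0.45. The sum of 5 neutrophil markers was 7.58 to 56.0 in WT and 29.0 to 138 in *Arntl*-/- cells. *Ngp* was at least 1.5-fold higher at all 4 times, though at 48 h from 0 WT and 4 *Arntl*-/- reads. *Camp* and *Ltf* were so at 2 times each, and *Mpo* was at 0 in all libraries. Sums of 4 B cell markers were 21.2 to 37.0 and 28.1 to 60.2, and of 3 megakaryocyte markers 41.1 to 80.1 and 34.4 to 94.0. The 8 macrophage markers summed to 15088 to 37621 and 16992 to 33590 and none differed by 1.5-fold between the genotypes, while mast and T cell markers summed to at most 2.16, with *Cd3e*, *Cd3g*, *Mcpt4* and *Tpsb2* at 0. The part of these cells in the levels of the repressor genes was not tested.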

How the data were processed

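PolyA RNA-seq of BMDMs was used, with 1 library for each of 8 conditions. Other experiments of the study were not analysed here. The authors aligned paired-end reads to mm9 with STAR and counted exon tags on RefSeq genes with HOMER, on both strands with at most 3 tags per position, and deposited FPKM per 10000000 reads. Of the value columns, 4 matched no sample label and were not used, and 1 broken line was left out. FPKM times length fell on whole multiples of 1 read for at least 99.97% of low values (tolerance 0.05 read), which gave the reads. Size factors by the median of ratios (0.918 to 1.13) scaled the FPKM, and log2 values used a pseudocount of 0.1. Among genes with 1 to 24 reads, 58.1% to 67.1% of read numbers were even and 16.5% to 28.6% were multiples of 6, so the intervals used reads divided by 6, a choice made after seeing the data. Means and differences of log2 ratios have normal-approximation intervals. Depth was 8587557 to 27036991 reads on genes. Genes counted had a mean of at least 50 reads.

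The 5 genes and all lists were chosen with earlier results of these data known. Named genes are the 5, *Arntl*, those of each list at least 1.5-fold apart the same way at 3 or more times, and the 3 nearest profiles of each. Others are named where a count is small or a gene stood out, after their values were seen. Alternatives were other scalings, pseudocounts of 1 and 0.01, filters, a 2-fold limit and leaving out each time. A limma fit of genotype and time was added after seeing the data, on log2 values of the genes counted, with a mean trend and Benjamini-Hochberg adjustment. Steps were tested on simulated data. Promoter windows came from RefSeq (GRCm38.p6) and shared runs from GENCODE transcripts. Software was scipy 1.17.1, numpy 2.4.6, statsmodels 0.14.6, pandas 2.3.3 and matplotlib 3.10.9 under Python 3.11.15, and limma 3.58.1 under R 4.3.3.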

Additional observations from a re-analysis of the deposited data

Results flagged for a closer look

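Between 0 and 6 h after KLA, *Per2* and *Cry1* changed in opposite directions in the genotypes, in each genotype beyond the error of counting all reads, as did 19.1% of the 11016 genes counted. *Per2* was lower at 6 h in WT cells (log2 change -0.63) and higher in *Arntl*-/- cells (0.28), a difference of 0.92. *Cry1* was higher in WT cells (0.24) and lower in *Arntl*-/- cells (-0.23), a difference of -0.47. By sign alone 4 of the 5 repressor genes were opposite, against 49.2% of genes, and 3 to 4 under the other scalings, against 44.6% to 54.2%. *Per2*, *Cry1* and *Cry2* were among them under each scaling, and *Per1* or *Per3* depended on it. With 1 library per condition neither of the 2 differences was tested, and with reads divided by 6 the interval of each included 0.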

How the results depend on the processing

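The labels give no replicate numbers, so the genotypes were paired only by time, in the limma fit, whose values without each time stand beside it. No difference between the genotypes or after KLA that reached 1.5-fold changed direction under any alternative. Leaving out 1 time moved some mean log2 ratios beyond the counting interval from all reads, though not beyond that from reads divided by 6: *Per2* was 1.43 without the 6 h pair and 1.82 without the 48 h pair, *Cry1* was 2.18 without 6 h and 1.959 without 48 h, and *Cry2* was 0.68 without 24 h and 0.997 without 48 h. After correction for expression level, 1 repressor gene in place of 0, *Per3*, was 1.5-fold lower in *Arntl*-/- cells at 24 h, with a log2 ratio of -0.66. The other calls at 1.5-fold that another scaling or pseudocount changed, *Cry2* between the genotypes at 0 h and several changes after KLA of *Per1*, *Per2*, *Cry1* and *Cry2*, are given beside each result. The share of genes past 1.5-fold between genotypes at 0, 6, 24 and 48 h, 6.30%, 5.46%, 8.17% and 13.5%, became 17.0%, 15.3%, 18.7% and 23.7% with a mean FPKM of at least 1, and 2.73%, 2.83%, 3.41% and 7.29% with at least 200 reads. Without a filter the 4 shares became 17.2%, 18.2%, 17.2% and 20.2%, and at 2-fold they became 1.44%, 0.80%, 2.10% and 4.45%. With all reads in place of reads divided by 6, 41 of 60 intervals of the repressor genes' ratios left out 1, against 17. Those that changed include *Per1* between the genotypes at 0 h (1.11 to 1.35), 24 h (1.17 to 1.46) and 48 h (1.01 to 1.27), *Per3* at 24 h (0.547 to 0.827) and *Cry2* at 48 h (1.102 to 1.495), and, against 0 h in WT cells, *Per2* at 6 h (0.500 to 0.825) and 48 h (1.31 to 2.25) and *Per3* at 24 h (1.38 to 2.16). The library with the fewest reads of a repressor gene was *Arntl*-/- at 48 h, with 83 of *Per3*.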

Other observations

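The nearest gene counted on each side of each repressor gene was also examined, a choice made after seeing the values. Of these 10 neighbours, *Tmem263*, which lies 13953 bases from *Cry1*, had a mean 1.77-fold higher level in *Arntl*-/- cells and was at least 1.5-fold higher at 3 of the 4 times. The other 9 had means of 0.922- to 1.21-fold. None of the repressor genes lies on chromosome 7 with *Arntl*.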
